A study of Mus musculus with 4 samples.

Results

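The Fragile X family genes Fxr1, Fxr2 and Fmr1 were followed in single cells of mouse ascites, in libraries labelled siCont or siFXR1-LNA. The 3 genes were taken by symbol out of 32285 genes in the deposited gene table, and all 3 were detected in every library. By the gene annotation GENCODE vM21 on the mouse build GRCm38, Fxr1 (ENSMUSG00000027680) lies at chr3:34019943-34070322, Fxr2 (ENSMUSG00000018765) at chr11:69632990-69653297 and Fmr1 (ENSMUSG00000000838) at chrX:68678541-68717963, each on the plus strand. The data address whether the 3 paralogs differ between cell types, whether Fxr1 was lower in the siFXR1-LNA-labelled libraries, and whether Fxr2 or Fmr1 was higher there.

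The 3 genes encode closely related RNA-binding proteins that bind messenger RNAs, sit on ribosomes and stress granules, and pair with themselves and with each other. FMRP, the product of Fmr1, holds back translation of many neuronal messages, and loss of its human counterpart causes Fragile X syndrome. FXR1 is essential in striated muscle, and its gene is often gained in human ovarian and other carcinomas. FXR2 is best known from the nervous system, where its loss changes behaviour and neuron formation. Because the proteins share domains and partners, a rise of one member after loss of another is a common question for this family.

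Ascites was taken from female FVB mice, by the labels 6 weeks after an intraperitoneal injection of Br-Luc cells (the supplement gives an earlier day), a mouse ovarian tumor line that by the methods lacks p53 and Brca1 and carries introduced Myc and a myristoylated Akt. Both groups were given siRNA with locked nucleic acid bases, complexed with the polymer jetPEI and injected intraperitoneally at regular intervals. The siCont group received a control siRNA and the siFXR1-LNA group one directed at mouse Fxr1. Each group had 2 droplet libraries read from the 3′ end, and each library pooled ascites of several mice, by the labels after lysis of red cells. So n is 2 libraries a group, and p-values other than those of the interaction test measure the spread between pools, with n = 2 against 2 allowing no exact permutation p under 0.333.

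The sequences shown first are the stretch of mouse Fxr1 that corresponds to seq3, the siRNA the study preferred in mouse cell lines, and the most similar stretch of each paralog, since these bear on how alike the family is at that site. The letters are those of the GENCODE vM21 transcripts on GRCm38, plus strand, 5′ to 3′, and capitals mark bases that differ from the Fxr1 stretch.
Fxr1: gcttacttgataatacagaatccga
Fxr2: gcCtCTtGgaCaCATcTgaaCcAga
Fmr1: TGtAacttTGAaatacaAaGtcTAa
The Fxr1 stretch, chr3:34064149-34064173, lies in coding exon 14 of 17 and is present in 6 of 7 annotated coding transcripts of the gene. The best window in Fxr2, chr11:69651553-69651577, is also in exon 14 and differs at 11 of 25 bases, with no matching run longer than 3 bases. The best window in Fmr1, chrX:68716783-68716807, is in exon 17, is not coding throughout, and differs at 10 of 25 bases, with a longest matching run of 6. The methods favour seq3 for use in mice and describe the siRNA of these mice as designed against mouse Fxr1, without printing its name there, and a window is a description of likeness, not a measured binding site.

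The 4 libraries held 17309 to 54665 cell barcodes and 78179267 to 113606837 UMIs (unique molecular identifiers, each counting 1 captured RNA molecule). After the cell filter of the methods, 16874 to 54344 cells a library remained, with median depths of 1349 to 2653 UMIs. Makeup differed sharply between the groups. Erythroid cells were 60.9% and 62.9% of cells in siCont but 0.0276% and 0.35% in the siFXR1-LNA-labelled libraries, while an unnamed cluster of shallow cells (cluster 0) was 0.149% and 0.167% in siCont but 75.5% and 31.9% there. Hemoglobin genes took 29.5% and 41.1% of UMIs in siCont and 10.0% and 9.11% in the siFXR1-LNA-labelled libraries. Pairs of libraries shared 575 to 2846 barcodes, 3.41% to 7.84% of the smaller library. Cells were named from marker genes: 8 of 8 macrophage markers were raised in the larger macrophage cluster, 7 of 8 granulocyte, 6 of 6 B-cell and 7 of 7 T-cell markers in theirs. The cells that would hold the tumor raised 5 of 9 epithelial and mesothelial markers (Krt8, Muc16, Wt1, Msln and Lrrn4). In them Wt1, a transcription factor of mesothelium and serous tumors, stood at 772 to 1180 CPM (UMIs per 1000000 UMIs of the same cells), but Epcam, the epithelial adhesion protein, at only 2.6 to 18.1 CPM, so they are called tumor or mesothelial cells.

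Over all cells of a library, Fxr1 was not lower in the siFXR1-LNA-labelled libraries. In siCont replicate 1 its level was 55.8 CPM and in replicate 2 it was 33.9 CPM, against 104 CPM in siFXR1-LNA replicate 1 and 71.8 CPM in replicate 2. The groups did not overlap, in the direction opposite to a knockdown (two-sided exact permutation test, p = 0.333, the smallest that 2 against 2 allows, adjusted p = 0.333 over the 3 genes). The label was kept as the grouping, but because the targeted gene goes against it the libraries are called by their label throughout. The study itself reports lower Fxr1 RNA in epithelial cells of its siFXR1-LNA group, tested over single cells with 1 siFXR1-LNA library left out. It also reports lower FXR1 protein in human and mouse tumor lines transfected with the siRNAs. In human OVCAR8 tumors of treated nude mice it reports lower FXR1 and MYC protein. With hemoglobin genes left out of the totals the levels of Fxr1 over all cells were 80.3 and 59.4 CPM against 116 and 80.002 CPM, and the groups overlapped. With erythroid cells and unnamed clusters left out they were 66.7 and 55.2 CPM against 90.3 and 73.9 CPM. Fxr2 stood at 16.8 and 12.3 CPM in siCont and 26.4 and 20.9 CPM in the siFXR1-LNA-labelled libraries, and Fmr1 at 24.4 and 18.1 CPM against 30.2 and 27.8 CPM. Both were apart in the same direction as Fxr1, but without hemoglobin genes the groups overlapped for both, and the difference for Fmr1 then had the opposite sign (-1.17 CPM).

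Across cell types the tumor or mesothelial cells held the highest level of all 3 genes among the 6 types with at least 30 family UMIs in every library, and did so in 4 of 4 libraries for each gene. For Fmr1 in siCont this depended on hemoglobin in the totals. With it left out, the siCont mean of Fmr1 was 41.4 CPM in T cells and 39.0 CPM in tumor or mesothelial cells. In the siFXR1-LNA-labelled libraries the means were then 38.9 and 57.9 CPM. Fxr1 in tumor or mesothelial cells was 113 and 134 CPM in siCont and 145 and 139 CPM in the siFXR1-LNA-labelled libraries, a mean of 133 CPM ± 14.1 (SD, n = 4 libraries). The other 5 types lay between 25.6 and 115 CPM, so the tumor or mesothelial level was 2.07 ± 0.505 times (SD over 4 libraries, range 1.67 to 2.81) the mean of the others. T cells followed at 78.0 ± 27.1 CPM, then B cells at 70.4 ± 23.7, macrophages at 67.1 ± 5.46, dendritic cells at 59.4 ± 4.86 and granulocytes at 59.0 ± 26.7 CPM. Each neighbour in that order overlapped the next in its range over libraries. The types were themselves made by clustering these counts, so these levels are a description without a test, although none of the 3 genes was among the variable genes used to cluster.

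**Figure D1:**
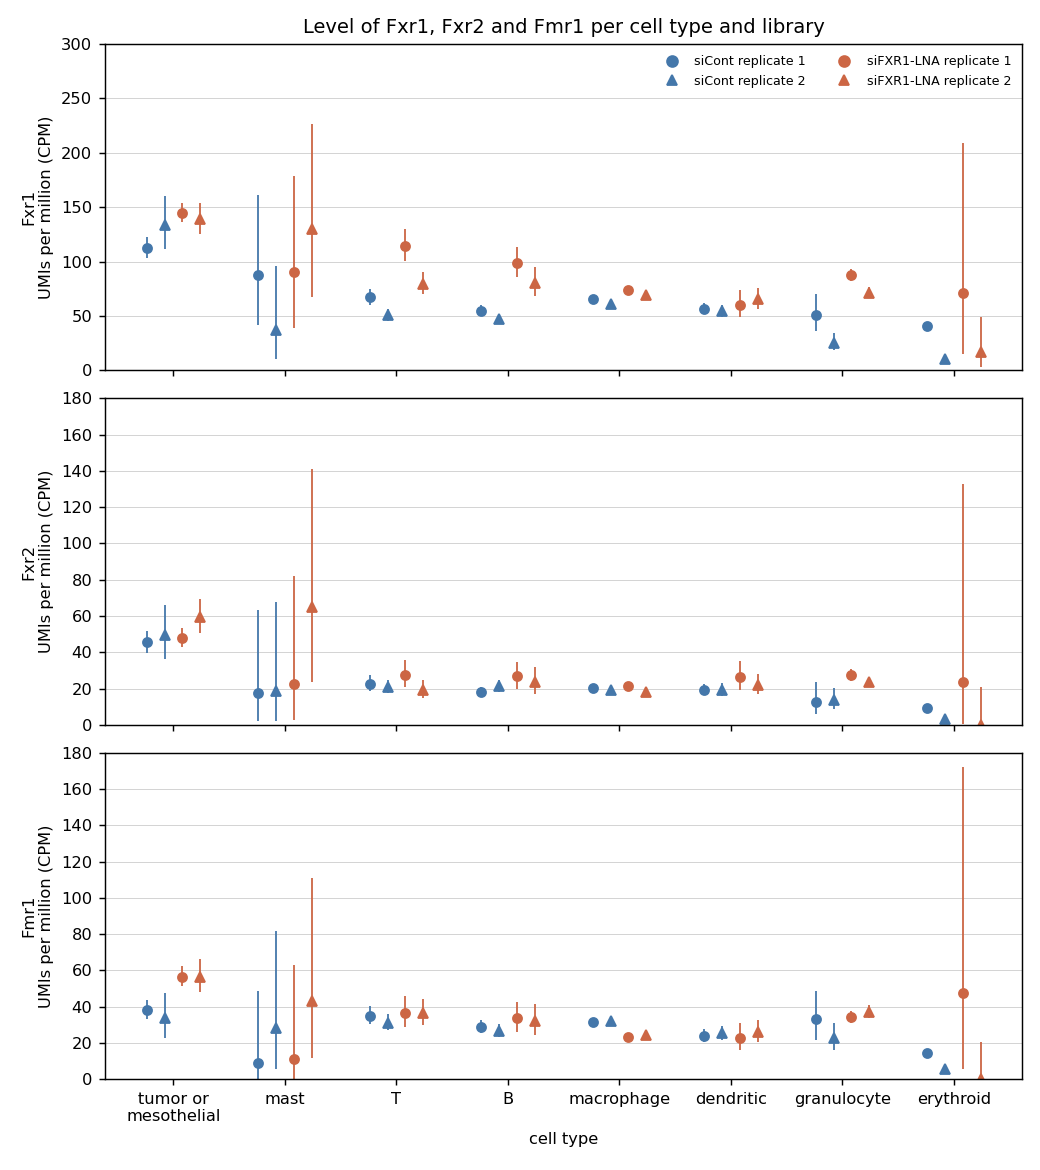
Level of Fxr1, Fxr2 and Fmr1 (vertical axis, CPM) in each named cell type (horizontal axis), with 1 point per library and vertical lines for the 95% exact Poisson interval, which covers counting error only. Fxr1 in tumor or mesothelial cells sits between 113 and 145 CPM and the mast and erythroid points of the siFXR1-LNA-labelled libraries have wide intervals because they rest on 3 to 12 UMIs of Fxr1.

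By the mean over 4 libraries, Fxr2 had the lowest CPM of the 3 members in every one of these 6 types but the tumor or mesothelial cells, where Fmr1 was lowest in siCont (means of 35.9 against 47.6 CPM for Fxr2) but not in the siFXR1-LNA-labelled libraries (56.6 against 53.7 CPM). In dendritic cells of siFXR1-LNA replicate 1 Fxr2 (26.4 CPM) was above Fmr1 (22.8 CPM). A 3′ UMI counts molecules and is not scaled by transcript length, so levels of different genes are set side by side only as captured molecules. In tumor or mesothelial cells Fxr2 was 45.5 and 49.7 CPM in siCont and 48.0 and 59.5 CPM in the siFXR1-LNA-labelled libraries, 2.43 ± 0.412 times the mean of the other 5 types (range 1.85 to 2.79), which lay between 12.8 and 27.4 CPM. Fmr1 in the same cells was 38.2 and 33.5 CPM in siCont and 56.6 and 56.6 CPM in the siFXR1-LNA-labelled libraries, 1.54 ± 0.355 times the others (range 1.21 to 1.88), which lay between 22.7 and 37.3 CPM. The ratios of the 3 genes, with hemoglobin genes kept in the totals, overlapped in their ranges. Fmr1 in the other types stood in T cells at 34.9 ± 2.62 CPM, granulocytes at 31.9 ± 6.33, B cells at 30.4 ± 3.10, macrophages at 27.8 ± 4.67 and dendritic cells at 24.5 ± 1.504 CPM.

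In rarer or shifting populations only the values can be given. Mast cells held 10, 4, 8 and 12 UMIs of Fxr1 in siCont replicates 1 and 2 and siFXR1-LNA replicates 1 and 2, and their members did not pass the filter on low counts. Erythroid cells of siCont held Fxr1 at 40.9 and 10.2 CPM, with 1680 and 404 UMIs. Hemoglobin took 57.4% and 78.9% of the UMIs of these cells, and with it left out of the totals Fxr1 there was 96.0 and 48.2 CPM, a mean of 72.1 CPM, against 51.1 CPM in granulocytes and 67.8 CPM in macrophages of siCont. The libraries labelled siFXR1-LNA had 15 and 59 erythroid cells with 3 UMIs of Fxr1 in each, too few to compare. NK cells and platelets had fewer than 10 cells in at least 1 library and were not tested.

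Tested by cell type, none of the 3 genes differed between the groups past the threshold (edgeR quasi-likelihood test on counts summed per library, Benjamini-Hochberg adjusted p under 0.05 over all genes). None of 18 gene and type pairs was called, and 3 had an unadjusted p under 0.05 (Fxr1 in B cells and macrophages, Fmr1 in tumor or mesothelial cells). Among all genes an unadjusted p under 0.05 was common in this test. It was met by 1786 of 12450 genes in B cells, 1384 of 12019 in T cells and 2195 of 11847 in dendritic cells. In granulocytes it was 2227 of 12325, in macrophages 5261 of 14294 and in tumor or mesothelial cells 2888 of 12639. Over all genes, the same test called 0.112% in B cells, 0.291% in T cells, 1.92% in dendritic cells, 3.1% in granulocytes, 19.3% in macrophages and 8.17% in tumor or mesothelial cells. Fxr1 was positive in 6 of 6 types, Fxr2 in 5 of 6 and Fmr1 in 3 of 6, and the CPM of Fxr1 did not overlap between the groups in any of the 6 types. The share of all genes without overlap was not counted, and the 6 types come from the same 4 libraries. Non-overlap is therefore given as values and not as a result particular to Fxr1. With hemoglobin genes left out of the totals, Fxr1 still did not overlap in B cells, dendritic cells and granulocytes, but overlapped in T cells, macrophages and tumor or mesothelial cells. Scaling by library totals in place of TMM (trimmed mean of M-values) moved the median log2 fold change of all genes to 0.18 in B cells, 0.16 in T cells, 0.24 in granulocytes and -0.18 in macrophages, from within 0.01 of 0. That scaling turned the called genes of granulocytes from 115 higher and 267 lower to 187 and 180, and those of macrophages from 1349 and 1407 to 1069 and 2420.

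**Figure D2:**
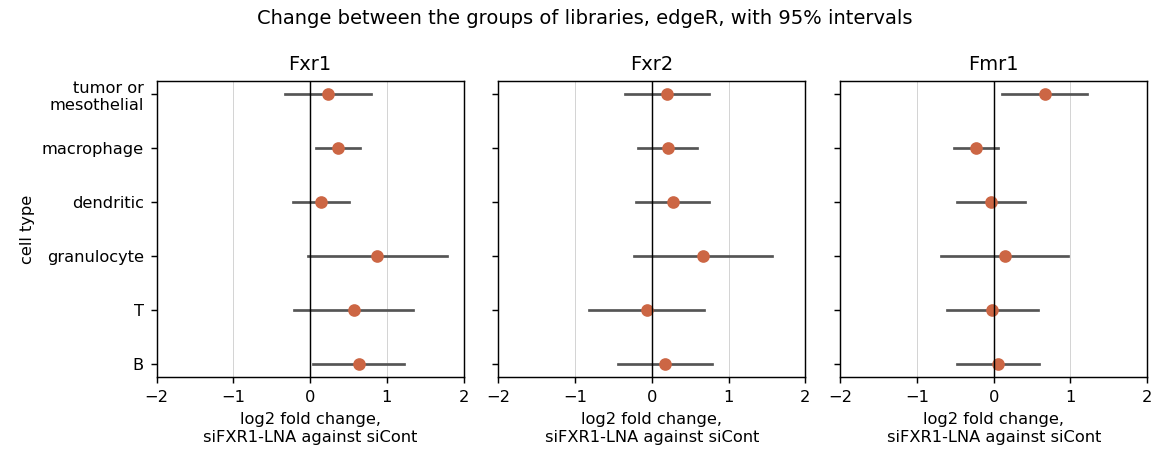
Log2 fold change (horizontal axis) of Fxr1, Fxr2 and Fmr1 between the siFXR1-LNA-labelled libraries and siCont in 6 cell types (vertical axis), with points for the edgeR estimate and lines for its 95% interval, n = 2 against 2 libraries. All 6 Fxr1 estimates lie above 0, from 0.14 to 0.88, and no estimate of any gene passed an adjusted p of 0.05.

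For Fxr1, which the siRNA is directed at, none of the 6 types showed a lower level in the siFXR1-LNA-labelled libraries. In tumor or mesothelial cells its log2 fold change was 0.23 (SE 0.26, 95% interval -0.33 to 0.79, edgeR adjusted p = 0.658). For the summed counts of all cells of this name, a fall beyond 0.33 on the log2 scale lay outside the interval. The counts behind this fold change were 575 and 124 UMIs in siCont and 1056 and 383 UMIs in the siFXR1-LNA-labelled libraries, from 774, 113, 1275 and 366 cells. The tumor or mesothelial cells of the groups lay mostly in different finer clusters, described further below. The interval therefore does not bear on a fall of Fxr1 within a finer cluster. With the unnamed cluster 0 added to these cells, an alternative chosen after seeing the data, Fxr1 was at 0.72 (adjusted p = 0.0299) and Fmr1 at 0.69 (adjusted p = 0.0286), both past the threshold, but that fit called 6217 of 14089 genes, and cluster 0 holds only 54 and 42 cells of siCont. In macrophages Fxr1 went from 65.4 and 60.6 CPM to 73.5 and 68.9 CPM, a log2 fold change of 0.37 (SE 0.11, 95% interval 0.08 to 0.65, edgeR adjusted p = 0.0800). In granulocytes it was 51.3 and 25.6 CPM against 87.4 and 71.6 CPM, the widest gap of the 6 types at 0.88 (SE 0.41, -0.02 to 1.78, edgeR adjusted p = 0.293). That value depends on siCont replicate 1: without it the log2 fold change was 1.33 and passed the threshold (adjusted p = 0.0114).

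The lymphocytes and dendritic cells gave the same order. In B cells Fxr1 was 54.9 and 47.2 CPM in siCont and 98.8 and 80.8 CPM in the siFXR1-LNA-labelled libraries, a log2 fold change of 0.63 (SE 0.24, 0.04 to 1.22, edgeR adjusted p = 0.329). In T cells it was 67.2 and 50.8 CPM against 115 and 79.6 CPM (0.57, SE 0.32, -0.20 to 1.34, edgeR adjusted p = 0.546). In dendritic cells 56.8 and 54.5 CPM stood against 60.5 and 65.6 CPM (0.14, SE 0.15, -0.22 to 0.50, edgeR adjusted p = 0.666). The lower bound of the interval was above 0 in macrophages and B cells, but neither passed the adjustment. Hemoglobin shares moved with the groups in these types, from 21.6% and 18.1% of T-cell UMIs in siCont to 7.52% and 3.83% in the siFXR1-LNA-labelled libraries, and from 17.1% and 16.7% to 7.52% and 3.96% in B cells. The summed tumor or mesothelial marker level in B cells was 208 to 678 CPM in siCont and 556 to 801 CPM in the siFXR1-LNA-labelled libraries, and in T cells 213 to 803 against 626 to 855 CPM. Granulocyte markers did not overlap between the groups, at 133 to 831 CPM in siCont B cells against 2132 to 2154 CPM, at 76.9 to 450.1 against 713 to 731 CPM in T cells, and at 99.8 to 177 against 352 to 360.2 CPM in tumor or mesothelial cells. Other lists were apart too, some of them lower, such as mast-cell markers in B cells (756 to 1861 against 104 to 150 CPM). The tumor or mesothelial markers in their own cells were 2604 to 2605 CPM in siCont against 1868 to 1956 CPM. T-cell markers in T cells were 1709 to 2333 CPM against 810 to 1704 CPM. A finer cluster of 1216 T cells was led by Ccn2, Ndrg1, Ctsl, Vegfa and Saa3, none of them a T-cell marker. The part of these shifts in the Fxr1 values was not tested.

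For Fxr2 the interval of the change included 0 in each of the 6 types. Its log2 fold change was 0.19 in tumor or mesothelial cells (SE 0.25, 95% interval -0.36 to 0.74), 0.21 in macrophages (SE 0.15, -0.17 to 0.59), 0.27 in dendritic cells (SE 0.19, -0.20 to 0.74) and 0.17 in B cells (SE 0.25, -0.44 to 0.78). In T cells it was -0.07 (SE 0.31, -0.83 to 0.69). Granulocytes had the widest gap, 12.8 and 13.6 CPM in siCont against 27.4 and 23.6 CPM in the siFXR1-LNA-labelled libraries, or 0.67 (SE 0.41, -0.23 to 1.57, edgeR adjusted p = 0.430). The upper bounds were 0.59 or more in each of the 6 types, so a rise of Fxr2 of up to that size lies within every interval.

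Fmr1 showed values in opposite directions in 2 types. In tumor or mesothelial cells the groups did not overlap, at 38.2 and 33.5 CPM in siCont and 56.6 and 56.6 CPM in the siFXR1-LNA-labelled libraries, and the log2 fold change was 0.66 (SE 0.25, 0.11 to 1.21, unadjusted p = 0.0218, edgeR adjusted p = 0.136). In macrophages they did not overlap the other way, at 31.7 and 32.0 CPM against 23.4 and 24.2 CPM, or -0.23 (SE 0.11, -0.52 to 0.05, edgeR adjusted p = 0.198). Neither passed the threshold in this fit, and with library totals in place of TMM the macrophage value was -0.42 (adjusted p = 0.0442). The share of all genes without overlap was not counted, so for Fmr1 too non-overlap is given only as values. Over 16 alternatives the tumor or mesothelial value of Fmr1 ran from 0.28, in finer cluster 2 alone (adjusted p = 0.778), to 0.74, and over 15 alternatives the macrophage value ran from -0.42 to -0.02. In granulocytes, T cells, B cells and dendritic cells the log2 fold change of Fmr1 lay between -0.04 and 0.14.

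The difference of the change between types was tested itself, as an interaction of group and cell type with library as a block. The block takes up the spread that a pool shares over its types. The error is what is left in the sums of all tested types, erythroid and mast cells among them, so these p-values do not measure the spread between pools. The change of Fmr1 in tumor or mesothelial cells exceeded that in macrophages by 0.92 on the log2 scale (SE 0.29, 95% interval 0.33 to 1.51, unadjusted p = 0.00371), which missed the threshold after adjustment over all genes (edgeR adjusted p = 0.0779) and passed it, at 0.98, with the 5% of cells with most UMIs removed (adjusted p = 0.0398). That was the only 1 of 12 alternatives to call it, and over the 12 the value ran from 0.52, with each cell named from its own markers, to 1.10, with adjusted p up to 0.650. Against T cells, dendritic cells and B cells the difference for Fmr1 was 0.74, 0.73 and 0.67, with edgeR adjusted p of 0.386, 0.390 and 0.426. For Fxr1 the largest difference was against granulocytes, -0.70 (SE 0.32, -1.35 to -0.05, edgeR adjusted p = 0.344), and without siCont replicate 1 it was -1.25 (adjusted p = 0.0483). No difference for Fxr2 passed the threshold, and its estimates ran from -0.53 against granulocytes to 0.35 against T cells. The same interaction test called 0.332% of all genes against B cells, 0.0977% against T cells, 0.573% against dendritic cells, 1.13% against granulocytes and 3.35% against macrophages.

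The balance within the family gives a view of the paralogs that does not depend on the total of a library, since each gene is taken as a share of the UMIs of all 3. Fxr1 held the largest share in every library of all 6 types. In tumor or mesothelial cells it held 57.4% and 61.7% in siCont and 58.1% and 54.5% in the siFXR1-LNA-labelled libraries, which overlapped. In macrophages it held 55.7% and 54.3% in siCont and 62.0% and 62.0% in the other group, and in T cells 53.7% and 49.3% against 64.1% and 58.7%. In B cells it held 53.8% and 49.6% against 62.0% and 59.2%, and in granulocytes 52.6% and 41.3% against 58.7% and 54.1%. These 4 shares were higher in the siFXR1-LNA-labelled libraries and did not overlap between the groups, each with a two-sided exact permutation p = 0.333, the smallest that this design allows, and an adjusted p of 0.5 over 18 shares. The types come from the same libraries, so they are not separate observations. Non-overlap was not counted for other sets of 3 genes.

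**Figure D3:**
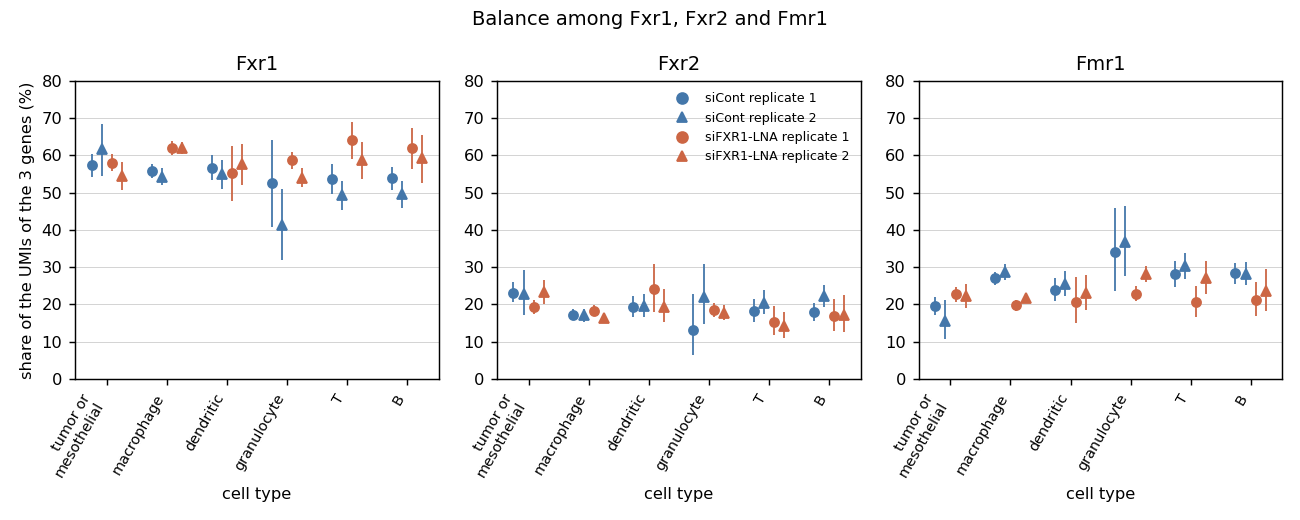
Share of Fxr1, Fxr2 and Fmr1 (vertical axis, percent of the UMIs of the 3 genes) in 6 cell types (horizontal axis), with 1 point per library and vertical lines for the 95% exact binomial interval, which covers counting error only. The Fmr1 share of the siFXR1-LNA-labelled libraries lies below siCont in macrophages, dendritic cells, granulocytes, T cells and B cells and above it in tumor or mesothelial cells.

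The Fmr1 share was lower in the siFXR1-LNA-labelled libraries in all 5 immune types, without overlap, and the shares of a cell type are not independent, since they add up to the whole. Here too the types share their libraries, and no other sets of genes were counted beside them. It was 27.0% and 28.7% in siCont macrophages against 19.7% and 21.7% in the siFXR1-LNA-labelled libraries. It was 34.2% and 36.7% against 22.9% and 28.1% in granulocytes, 28.1% and 30.2% against 20.5% and 27.0% in T cells, and 28.3% and 28.2% against 21.2% and 23.5% in B cells. In dendritic cells it was 23.9% and 25.5% against 20.8% and 23.0%. In tumor or mesothelial cells the Fmr1 share was 19.5% and 15.4% in siCont and 22.7% and 22.2% in the siFXR1-LNA-labelled libraries. Each had an exact permutation p = 0.333 and an adjusted p of 0.5. The Fxr2 share had its smallest spread over libraries in macrophages, at 17.3% and 17.0% against 18.3% and 16.3%. The lowest family count behind a share was 76 UMIs in granulocytes of siCont replicate 1, where the 95% exact Clopper-Pearson interval for Fxr1 was 40.8% to 64.2%.

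Most single cells held no UMI of these genes at a shallow depth. To compare across depths, each cell was thinned to 1000 UMIs and shallower cells were left out. Fxr1 was then seen in 11.8% and 14.4% of tumor or mesothelial cells of siCont and in 13.4% and 14.6% of those in the siFXR1-LNA-labelled libraries. In macrophages the share was 6.60% and 5.88% against 8.01% and 7.46%, in granulocytes 4.53% and 3.30% against 8.34% and 6.99%, and in T cells 7.08% and 5.39% against 11.7% and 7.64%. Unthinned, at median depths of 5595, 8372, 4916 and 6554 UMIs a cell, 46.6%, 56.6%, 50.7% and 59.0% of tumor or mesothelial cells of siCont replicates 1 and 2 and siFXR1-LNA replicates 1 and 2 had a UMI of Fxr1. No named type is known to lack the gene, and in siCont erythroid cells the share was 3.99% and 1.02%, thinned from medians of 1748 and 2361 UMIs. Thinning keeps hemoglobin UMIs, which fill most of those cells, so that the erythroid share rests on fewer other UMIs a cell. Fmr1 was seen in 3.97% and 3.604% of thinned tumor or mesothelial cells of siCont and in 5.84% and 7.44% in the siFXR1-LNA-labelled libraries, and Fxr2 in 4.10% and 4.50% against 5.37% and 6.06%. Where groups were apart the two-sided exact permutation p was 0.333, the smallest possible with 2 libraries a group.

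The cells under 1 name were not the same mixture in both groups. Of the tumor or mesothelial cells, finer cluster 1 held 593 of 774 and 83 of 113 in siCont, whereas finer cluster 0 held 1136 of 1275 and 277 of 366 in the siFXR1-LNA-labelled libraries. Fxr1 was 157 and 161 CPM in finer cluster 0 of the siFXR1-LNA-labelled libraries. In finer cluster 1 it was 131 and 162 CPM in siCont and 154 and 143 CPM in the others, which overlapped, and in finer cluster 2 it was 80.7 and 47.7 CPM against 69.3 and 90.6 CPM, which also overlapped. Finer cluster 0 held 9 and 5 cells of siCont, too few to compare, so most tumor or mesothelial cells of the siFXR1-LNA-labelled libraries were not compared within their own finer cluster. Fmr1 was apart within finer cluster 1, at 40.5 and 32.7 CPM against 80.3 and 99.0 CPM, though on 34 and 18 UMIs in the siFXR1-LNA-labelled libraries. In cells with UMIs of at least 2 cell-cycle genes, Fxr1 was 115 and 119 CPM in siCont and 129 CPM in siFXR1-LNA replicate 1, and siFXR1-LNA replicate 2 held only 8 such cells. Fmr1 overlapped in finer cluster 2, at 33.5 and 31.8 CPM against 44.1 and 29.4 CPM.

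**Figure D4:**
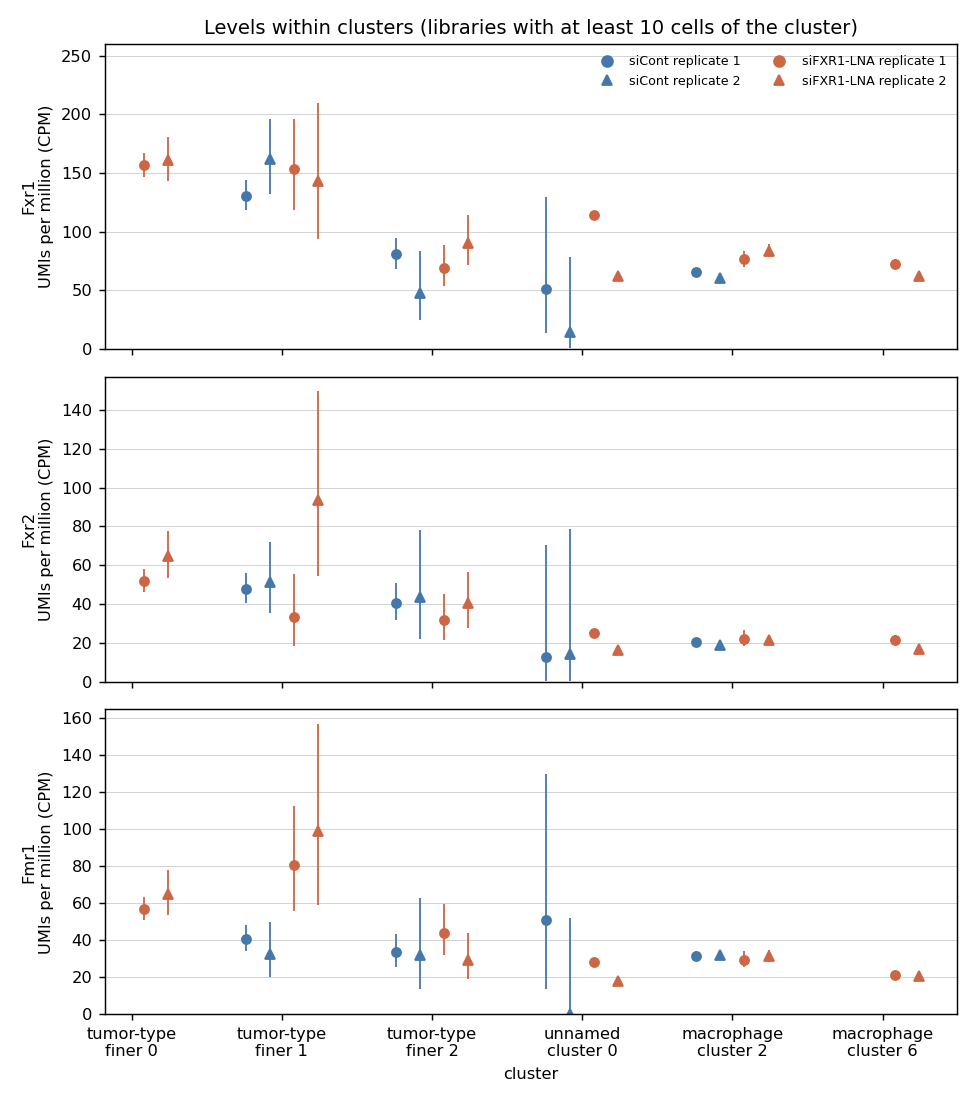
Level of Fxr1, Fxr2 and Fmr1 (vertical axes, CPM) inside clusters of the tumor or mesothelial cells, the unnamed cluster 0 and the macrophages (horizontal axis), with 1 point for each library that has at least 10 cells in the cluster and 95% exact Poisson intervals. Fmr1 in macrophages lies between 29.5 and 32.0 CPM in cluster 2 and at 21.3 and 20.8 CPM in cluster 6, where siCont had 1 cell.

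Macrophages were split in the same way. Cluster 2 held 4393, 2155, 1442 and 1517 cells in siCont replicates 1 and 2 and siFXR1-LNA replicates 1 and 2, and cluster 6 held 2527 and 2208 cells of the siFXR1-LNA-labelled libraries but only 1 cell of siCont. Inside cluster 2 Fmr1 was 31.7 and 32.0 CPM in siCont and 29.5 and 31.2 CPM in the siFXR1-LNA-labelled libraries, lower still but by less than over all macrophages, with a log2 fold change of -0.07 (edgeR adjusted p = 0.805). Cluster 6 held Fmr1 at 21.3 and 20.8 CPM. Fxr1 in cluster 2 was 65.4 and 60.6 CPM against 76.2 and 83.3 CPM, still apart, and in cluster 6 it was 72.6 and 62.1 CPM. A test within cluster 2 called 0 of all genes at an adjusted p of 0.05 by edgeR, with 2388 at an unadjusted p under 0.05. Leading genes of cluster 6 included Arg1 and Nos2, enzymes that use arginine, and the heme-degrading Hmox1. Granulocyte markers summed to 121 to 430.5 CPM in siCont macrophages and 1362 to 1592 CPM in those of the siFXR1-LNA-labelled libraries. The part of these marker shifts in the macrophage values was not tested.

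Genes around the family were read from 3 lists. The first held 24 partner proteins of the family, such as the CYFIP proteins, NUFIP1, CAPRIN1 and the stress granule proteins G3BP1 and USP10. None passed the threshold in B cells, T cells, dendritic cells or tumor or mesothelial cells, where the list's median log2 fold change was -0.05, -0.03, -0.02 and 0.11, beside -0.01, -0.00, -0.00 and 0.01 for all genes tested. In macrophages 1 of 24 rose and 3 fell, with a median of -0.06, beside 19.3% of all genes called there, so the list was not called more often than genes at large. Mov10, an RNA helicase that acts with FMRP on messages, fell from 22.9 and 24.3 CPM to 5.74 and 7.82 CPM there (log2 fold change -1.61, SE 0.20, edgeR adjusted p = 0.0106). Usp10, a deubiquitinase bound to G3BP, changed by -0.83 (edgeR adjusted p = 0.0221) and Stau2, a double-stranded RNA-binding transport protein, by -0.83 (adjusted p = 0.0481). Nufip1, a nuclear partner of FMRP, rose by 0.53 (adjusted p = 0.0340). In granulocytes, where 3.1% of all genes were called, Mov10 alone of 24 passed, falling from 19.2 and 48.8 CPM to 8.58 and 7.73 CPM (log2 fold change -2.43, SE 0.50, edgeR adjusted p = 0.0317), and without siCont replicate 2 it was -1.30 (adjusted p = 0.150). The call was also lost without siFXR1-LNA replicate 1 or 2 (adjusted p = 0.0694 and 0.0785).

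The second list held 16 genes of RNA interference, the machinery that uses an siRNA. No member passed in tumor or mesothelial cells (15 tested, median 0.06), dendritic cells, granulocytes, T cells or B cells. Ago2, the slicer of the pathway, was at 127 and 183 CPM in siCont tumor or mesothelial cells. It was at 270 and 205 CPM in those of the siFXR1-LNA-labelled libraries and did not pass the test. Ago2 was named after its values were seen, and the share of all genes without overlap was not counted. In macrophages, where 19.3% of all genes were called, 2 of 16 rose, Ago3, an Argonaute protein, by 0.61 (adjusted p = 0.0227) and Tnrc6b, a scaffold that Argonaute proteins recruit, by 0.59 (adjusted p = 0.0382). Each of the macrophage calls in these lists was lost within cluster 2 alone, where the adjusted p lay between 0.129 and 0.949, and all 6 also missed the threshold without siFXR1-LNA replicate 1, where Mov10 was at -1.38 (adjusted p = 0.0674). With each cell named from its own markers all 6 calls were lost too, with adjusted p from 0.0755 for Mov10 to 0.349 for Ago3, which was then at 0.29, and Usp10 at -0.51. Without siFXR1-LNA replicate 2, Mov10 alone of the 6 kept its call. Without siCont replicate 1 the calls of Stau2, Usp10, Nufip1 and Tnrc6b were lost, and without siCont replicate 2 those of Nufip1, Ago3 and Tnrc6b.

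**Figure D5:**
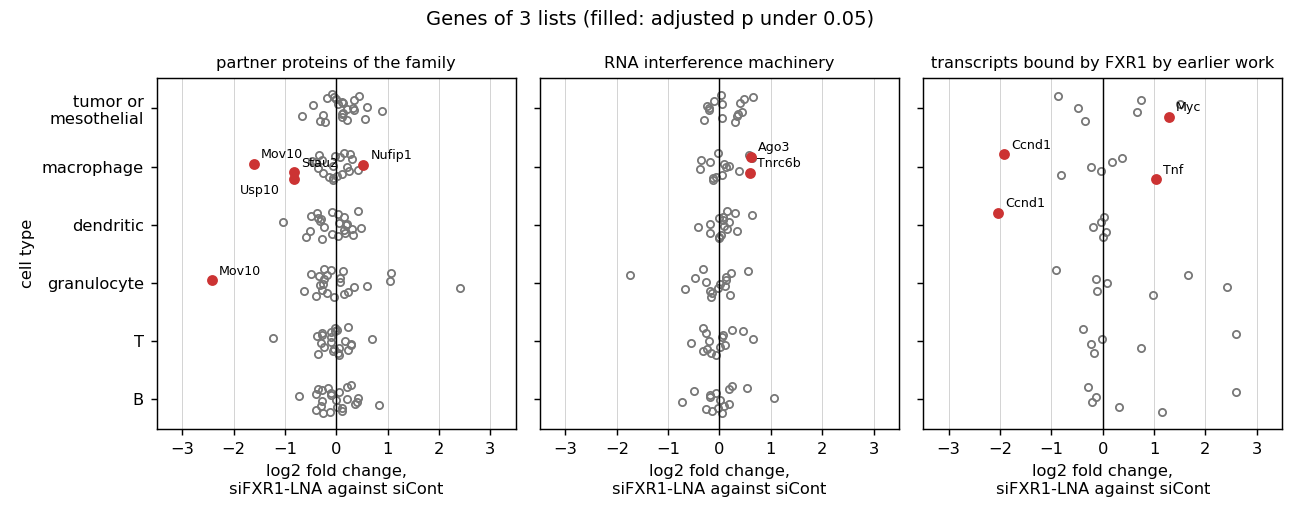
Log2 fold change (horizontal axes) between the siFXR1-LNA-labelled libraries and siCont of the tested genes of 3 lists, by cell type (vertical axis), with 1 point per gene and filled red points for an edgeR adjusted p under 0.05. In macrophages 8 genes of the lists are filled, in granulocytes Mov10, in dendritic cells Ccnd1 and in tumor or mesothelial cells Myc.

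The third list held 9 transcripts named in earlier work as bound or steered by FXR1, of which the study itself named Ccnd1, Eif4e and Eif4g1 on these samples, so that their direction is not independent evidence. In macrophages 1 of 7 tested rose and 1 fell, beside 19.3% of all genes called, in dendritic cells 1 of 6 fell, beside 1.92%, and in tumor or mesothelial cells 1 of 7 rose, beside 8.17%. Ccnd1, the G1 cyclin D1, fell in macrophages from 132 and 155 CPM to 34.9 and 31.9 CPM (log2 fold change -1.92, SE 0.15, edgeR adjusted p = 0.00550) and in dendritic cells from 290 and 307 CPM to 53.9 and 93.9 CPM (-2.04, SE 0.26, edgeR adjusted p = 0.0286). Within macrophage cluster 2 the value was -1.24 (adjusted p = 0.0834), with each cell named from its own markers -1.27 (adjusted p = 0.134), and without siFXR1-LNA replicate 1 the call was lost in both types (adjusted p = 0.0602 in macrophages and 0.112 in dendritic cells), as it was in dendritic cells without siFXR1-LNA replicate 2 (0.0840). In tumor or mesothelial cells Ccnd1 was at 195 and 128 CPM against 77.4 and 99.7 CPM and did not pass. Myc, the growth transcription factor, rose in tumor or mesothelial cells from 32.1 and 24.9 CPM to 87.1 and 50.8 CPM (1.29, SE 0.32, edgeR adjusted p = 0.0287). Without siFXR1-LNA replicate 1 it was 0.74 and the call was lost. Over 16 alternatives it ran from 0.74 to 2.09, and 14 of them called it. These cells lay mostly in different finer clusters between the groups, and the part of that in the Myc value was not tested. The study reports lower MYC protein, not RNA, in treated OVCAR8 tumors. The Br-Luc cells carry an introduced Myc, and whether these counts hold its transcripts is not given in the sources used here. Tnf, the inflammatory cytokine, rose in macrophages from 7.84 and 9.02 CPM to 14.1 and 16.1 CPM (1.03, adjusted p = 0.0205), but was -0.43 within cluster 2 (adjusted p = 0.394) and lost its call without siCont replicate 1 or either library of the other group.

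At the Fxr1 locus the coding gene Dnajc19, for a mitochondrial import protein, overlaps Fxr1 on the opposite strand. Its log2 fold change in tumor or mesothelial cells was -0.41 (SE 0.27, edgeR adjusted p = 0.412). Sat2, an acetyltransferase gene 9120 bases upstream of Fxr2, had -0.98 (SE 0.43, edgeR adjusted p = 0.190). The other nearest coding genes of the 3 loci did not pass the filter on low counts in these cells.

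Genes with the pattern most like each member were ranked by Pearson's correlation of log2(CPM + 1) over 37 sums of a cell type in a library, among 6611 genes with a mean of at least 20 CPM. These sums share libraries and depth, so the values are a description with no test. Fxr1 ran closest with Atp6v1c1 (r = 0.92), a subunit of the proton pump of acidic compartments, then Ubap2l, Jkamp, Pcm1 and Smarca5 (0.90 to 0.91). Ubap2l, a stress granule protein, is also on the partner list. Fxr2 ran closest with Dnm1l (0.97), the GTPase of mitochondrial fission, then Mysm1, Aatf, Ahcyl1 and Ap1g1 (0.96 to 0.97). Fmr1 ran closest with Mcrs1 (0.92), then Ranbp2, Sfswap, Sart1 and Phc2 (0.90 to 0.92), of which Sfswap and Sart1 act in splicing. Among the members r was 0.63 for Fxr1 and Fxr2, 0.70 for Fxr1 and Fmr1 and 0.55 for Fxr2 and Fmr1. Without the erythroid and platelet sums, 31 sums remained and the 3 values were 0.80, 0.27 and 0.39. The named genes fell in r over those sums too, to 0.76 to 0.84 with Fxr1, 0.75 to 0.84 with Fxr2 and 0.45 to 0.72 with Fmr1, so that Fxr2 was then as close to Fxr1 as the genes named for it. Hemoglobin stayed in the totals for these correlations.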

How the data were processed

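Deposited UMI counts per gene and cell barcode, made by the authors with Cell Ranger 7.0.0 on mm10 per the labels (a later version in the methods), were used as raw counts. Whether reads in introns were counted is not given in the sources used here, and kit versions differ between labels and methods. The limits of the methods on cells were applied (100 to 4800 genes, mitochondrial share up to 15%). They left 36311 and 25115 barcodes in siCont and 54344 and 16874 in the siFXR1-LNA-labelled libraries. Each library alone thus held more than the methods count over all samples, so makeup and levels over all cells include many barcodes that the study did not keep. The methods left out 1 siFXR1-LNA library that the labels do not identify, so both were kept. Cells were clustered with Seurat 5.3.0 (2000 variable genes, 50 components, resolution 0.1). Clusters were named when enough fixed markers were raised (at least 2-fold and in 5% of cells), a rule set after the clusters were seen, as was the choice of types with at least 30 family UMIs per library. Finer clusters led by another type's markers were left out. No doublet caller was run, and removing the 5% of cells with most UMIs was an alternative. Counts were summed per type and library and tested with edgeR 4.0.16 (TMM, filterByExpr, quasi-likelihood, R 4.3.3), checked on simulated data, with DESeq2 1.42.0 as an alternative. Intervals for levels and shares are exact at 95% and cover counting error only. The genes named are the 3 members, list genes past the threshold, neighbours at the loci and the 5 most similar genes, and Ago2, Epcam and Wt1 besides, and Ccnd1 in tumor or mesothelial cells, chosen after their values were seen. The members and lists were chosen with earlier results of these data known. The authors' Wilcoxon tests over cells were not used. Of gene identifiers in the counts, 32235 of 32285 matched GENCODE vM21. The siRNA's own letters and the proteins are not shown.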

Additional observations from a re-analysis of the deposited data

Results flagged for a closer look

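Fxr1 and Fxr2 were also read in cells without a type name. These cells enter the levels over all cells and an alternative fit, but not the comparisons by named type. The unnamed cluster 0, which holds 54 and 42 cells of siCont and 41033 and 5388 cells of the siFXR1-LNA-labelled libraries, had a mean Fxr1 level of 88.0 CPM over the latter (114 and 61.8 CPM, from 7005 and 790 UMIs). Its mean Fxr2 level there was 20.5 CPM (24.9 and 16.1 CPM). In siCont the cluster held 4 and 1 UMIs of Fxr1, at 50.7 and 14.1 CPM, so a comparison rests on almost no counts. The cluster raised 4 of 9 tumor or mesothelial markers (Krt18, Krt8, Msln and Lrrn4) at a median of 1280 UMIs a cell, and hemoglobin genes took 14.8% and 44.9% of its UMIs in the siFXR1-LNA-labelled libraries. With hemoglobin left out of the totals, Fxr1 was 134 and 112 CPM there.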

How the results depend on the processing

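Fxr1 was positive in all 6 types under every alternative run. The lowest values were 0.03 in tumor or mesothelial cells, 0.08 in dendritic cells, 0.17 in T cells, 0.18 in macrophages and 0.43 in B cells. The alternatives reuse the same 4 libraries, so their shared sign is not separate evidence. Of 261 alternative values for the changes of the 3 genes, 244 kept direction and side of the threshold, 13 reversed and 4 became called. The alternatives on single clusters, and cluster 0 added to the tumor or mesothelial cells, were chosen after seeing the data. With cluster 0 added, Fxr1 there was 0.72, Fmr1 0.69, and 6217 of 14089 genes were called. With finer cluster 2 alone Fxr2 was -0.095 and 257 genes were called (1033 in the report's fit). In macrophage cluster 2 alone 0 genes were called by edgeR (2388 at an unadjusted p under 0.05) and Tnf was -0.43. The cause of each reversal was not tested.

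With library totals in place of TMM, Fmr1 was -0.42 in macrophages, 0.15 in T cells and 0.0048 in dendritic cells, Fxr2 was 0.085 in T cells, the tumor or mesothelial minus macrophage difference of Fxr1 was 0.016, the same against B cells for Fxr2 was -0.15, and T cells had 53 calls. With each cell named from its own markers, Fxr2 was 0.37 in T cells. Its differences were then -0.17 against T cells, 0.17 against dendritic cells and -0.083 against macrophages, and that of Fmr1 against granulocytes was -0.12. Calls were then 26 in B cells, 130 in T cells, 67 in dendritic cells and 1 in macrophages. The share of Fxr2 in the UMIs of the 3 genes in dendritic cells, siFXR1-LNA minus siCont, was then -1.44 points, and the share of Fxr2 in the UMIs of the 3 genes in macrophages, siFXR1-LNA minus siCont, -0.715 points. Shares of Fxr2 in T cells and granulocytes then differed by 0.995 and -3.08 points, and of Fxr1 in tumor or mesothelial cells by 2.93 points. The Fxr2 difference against macrophages was -0.0069 with at least 500 genes a cell, -0.059 with at most 10% mitochondrial UMIs and -0.024 at resolution 0.3. With the 5% of cells with most UMIs removed, the Fmr1 difference against macrophages was 0.98. With no low-count filter, Fmr1 in B cells was -0.0030, the Fxr2 difference against dendritic cells was 0.019, and calls were 1207 in B cells, 916 in T cells, 1525 in dendritic cells, 1697 in tumor or mesothelial cells and 0 in granulocytes by edgeR (2212 at an unadjusted p under 0.05). DESeq2 called 442, 331 and 545 genes in B, T and dendritic cells. Without hemoglobin, the overall Fmr1 difference was -1.17 CPM. Detection differences in points reversed to -0.135 for Fxr2 in B cells and -1.73 for Fxr1 in tumor or mesothelial cells at 500 UMIs, and to 0.237 for Fmr1 in T cells at 2000 UMIs. Unthinned they were -0.154 for Fxr2 and 0.184 for Fmr1 in T cells and -0.222 for Fxr1 in dendritic cells.

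With the replicate number as a block, calls were 876 in B cells, 407 in T cells, 785 in dendritic cells and 1045 in granulocytes, and no member was called. The numbers only name libraries: same-numbered libraries deviated together with r from -0.08 to 0.37 over the types, with 2 pairs.

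Leaving out each library in turn gave 0 to 1145 calls in B cells, 29 to 388 in T cells, 0 to 984 in dendritic cells, 153 to 2328 in granulocytes, 10 to 2060 in macrophages and 556 to 1983 in tumor or mesothelial cells. Fxr1 in granulocytes ran from 0.57 to 1.33. The Fxr1 differences ran from -1.25 to -0.25 against granulocytes, -0.59 to 0.026 against T cells, -0.027 to 0.48 against dendritic cells and -0.33 to 0.057 against macrophages. Those of Fxr2 ran from -0.047 to 0.31 against B cells, -0.070 to 0.75 against T cells, -0.10 to 0.15 against dendritic cells and -0.14 to 0.22 against macrophages. Fxr2 in T cells ran from -0.45 to 0.23, and Fmr1 from -0.032 to 0.13 in B cells, -0.12 to 0.060 in T cells and -0.14 to 0.052 in dendritic cells. Shares ran from -0.702 to 1.72 points (Fxr1, dendritic), -3.91 to 4.95 (Fxr2, granulocytes), -0.837 to 1.12 (Fxr2, macrophages) and -3.81 to 0.309 (Fxr2, tumor or mesothelial). Detection ran from -0.271 to 0.381 (Fxr2, T), -0.743 to 0.494 (Fmr1, T), -0.427 to 1.83 (Fxr1, dendritic), -1.26 to 0.159 (Fmr1, dendritic), -0.154 to 0.396 (Fxr2, macrophages) and -0.405 to 2.24 points (Fxr1, tumor or mesothelial).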
